A study of Caenorhabditis elegans with 11 samples.

Results

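Whole Caenorhabditis elegans treated with indoline carboxylic acid-betacyanin were compared with untreated controls across protein-coding genes. The 3 arrays of the betacyanin and the 2 control arrays were taken by their treatment label, which made 5 of the 11 arrays of the series. Betacyanins are violet plant pigments in which betalamic acid is joined to a cyclic amine of the indoline kind, and the compound is called indoline-betacyanin below. All animals were wild-type N2, the standard laboratory strain, synchronised by bleaching gravid adults. Larvae 16 to 18 h old were kept for 48 h at 20 °C in liquid S medium with 25 uM of the pigment, or without it in the controls, and were described by the labels as young adults 3 days after hatching. Total RNA of whole animals was copied from 3.5 ng into cDNA and hybridised to Affymetrix arrays, with 1 array per trial. The sample titles call them independent trials, but the labels do not say whether these were separate cultures. The p-values below measure only the spread between these arrays, which may be technical.

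The deposited log2 values covered 29317 transcript clusters, of which 19414 matched 19177 protein-coding genes. Over all clusters the 2 controls correlated at 0.988 and the treated arrays at 0.989 to 0.992, while a control and a treated array correlated at 0.913 to 0.933. The median level was 2.17 and 2.12 for the controls, against 1.97, 1.99 and 1.98 with indoline-betacyanin. Stage markers went against the label of young adult on all 5 arrays. The mean log2 level of 5 tested yolk genes, which adult intestine transcribes in large amounts, was 1.77 and 1.62 on the controls and 2.09, 3.42 and 1.81 with indoline-betacyanin. Oocyte and eggshell genes lay at 2.59 and 2.19 against 2.13, 2.73 and 2.25, and no gene of either list passed the test. The 15 tested moulting genes, which larvae use to renew the cuticle, had means of 6.21 and 6.28 on the controls and 6.10, 6.14 and 6.21 on the treated arrays. Treated array 2 stood above the other two in yolk, with vit-2 at 5.15 against 2.90 and 2.48.

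The authors' deposited table of this comparison rests on 3 arrays per group, as its sums of squares show, and so on 1 more control than is analysed here. The value of that further control could be derived for each cluster from the ratio in the table, and is called the implied control below. It is a calculated value, not an array in hand. Derived from the authors' tables of indoline-betacyanin and of phenylalanine-betaxanthin, it agreed at a correlation of 0.983 with a median absolute difference of 0.217. It correlated at 0.782 and 0.793 with the 2 controls, at 0.804 to 0.816 with the treated arrays and at 0.982 to 0.984 with indicaxanthin array 3 and the arrays of phenylalanine-betaxanthin. Its mean was 10.24 for yolk genes, 8.31 for oocyte genes and 4.16 for moulting genes. The implied control therefore stood apart from both controls in stage markers. Its value from the table of indoline-betacyanin is given beside the results.

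The nematode is a small animal whose tissues each use a recognisable set of genes. Its neurons signal through classical transmitters and through a large set of short peptides, which are cut from precursors by dedicated enzymes and read by G protein-coupled receptors. The epidermis builds a cuticle of collagens that is replaced at each moult, together with nematode proteins related to hedgehog. The intestine serves as gut, liver and fat store, with many lysosomes, and the pharynx is a muscular pump that grinds bacteria.

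Of 15770 protein-coding genes tested, 3314 were higher and 2598 lower with indoline-betacyanin in limma's moderated test at a Benjamini-Hochberg adjusted p of 0.05. These are 21% and 16.5% of the genes tested, 37.5% together, and the shares of each gene list below are read against them. Changes of at least 1 on the log2 scale were found in 1391 higher and 1016 lower genes, and of at least 2 in 284 and 269. The treated arrays did not overlap the controls in 62% of all genes tested, so that a lack of overlap by itself says little of a single gene. The remaining 3407 genes lay below the limit on low levels and were not tested. In the wider set of 20291 named clusters, 3643 were higher and 3848 lower, or 36.9% together, and 1195 of the lower clusters were not protein-coding. With all 11 arrays in 1 model the calls fell to 1474 higher and 1068 lower genes, of which 2539 kept their call and direction, and without control array 1 there were 2093 and 1897. Centring each array on its median moved the median change of all genes from 0.04 to 0.20 and gave 4654 higher and 1887 lower genes, so that 71.2% of the calls were then higher, against 56.1% before.

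**Figure D1:**
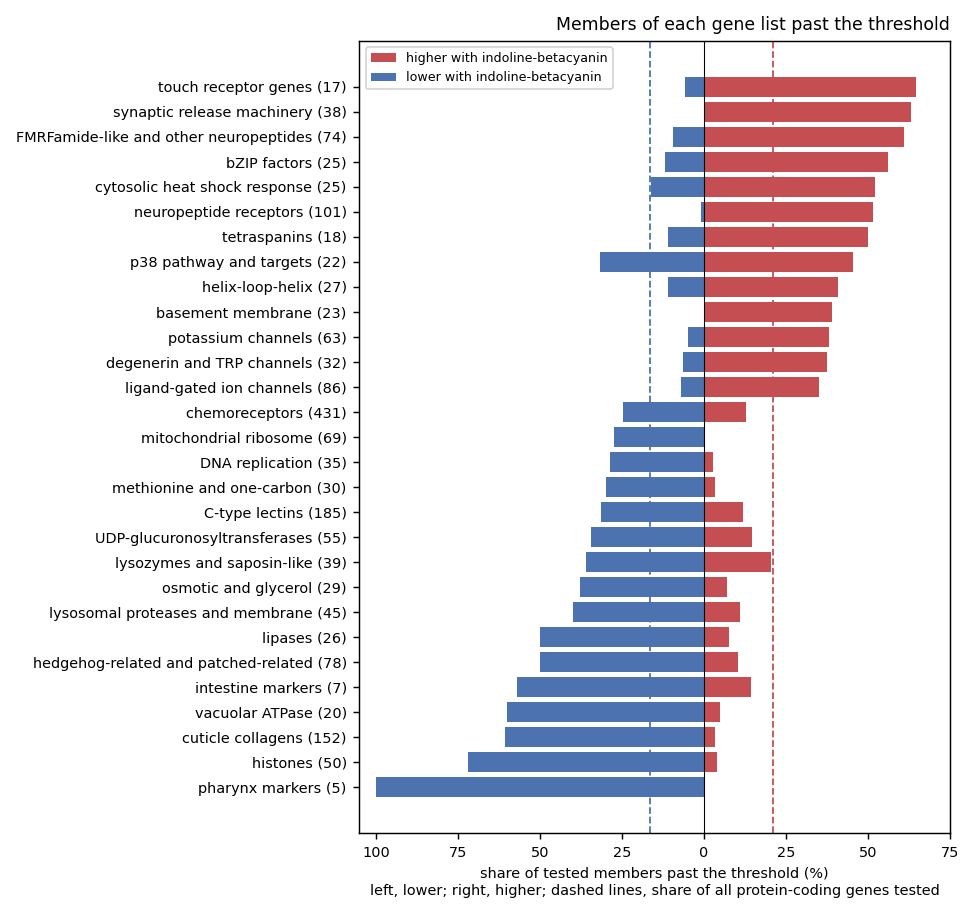
Share of the tested members of 29 gene lists past the threshold, in percent, with higher genes to the right and lower genes to the left of 0, and the number of tested members in brackets. The dashed lines mark the 21% higher and 16.5% lower of all protein-coding genes tested. The neuropeptide, receptor, synaptic, touch and channel lists reach 34.9% to 64.7% higher, and pharynx markers, histones and cuticle collagens reach 60.5% or more lower.

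The implied control lay nearer the controls for a larger share of the higher than of the lower genes, and the difference was not tested. For 2378 of the higher genes, or 71.8%, it lay nearer the 2 controls than the treated arrays by both tables, and for 752, or 22.7%, nearer the treated arrays. Among the lower genes it lay nearer the controls for 859, or 33.1%, and nearer the treated arrays for 1482, or 57%. The authors' deposited table gave the same direction with an unadjusted p-value under 0.05 for 2013 of the higher genes (60.7%) and 746 of the lower ones (28.7%). For a lower gene whose implied control is near the treated arrays, the controls themselves differ by much of the group difference, or by more. Such genes are pointed out below. An implied control nearer the controls does not mean that the controls agreed, since it may lie well beyond them. For neuropeptide genes its mean was 3.83, against 5.33 and 5.29 on the controls and 5.88, 5.97 and 5.96 on the treated arrays. For neuropeptide receptors it was closer, at 2.11 against 2.39 and 2.45, with 3.01, 3.13 and 3.02 on the treated arrays.

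**Figure D2:**
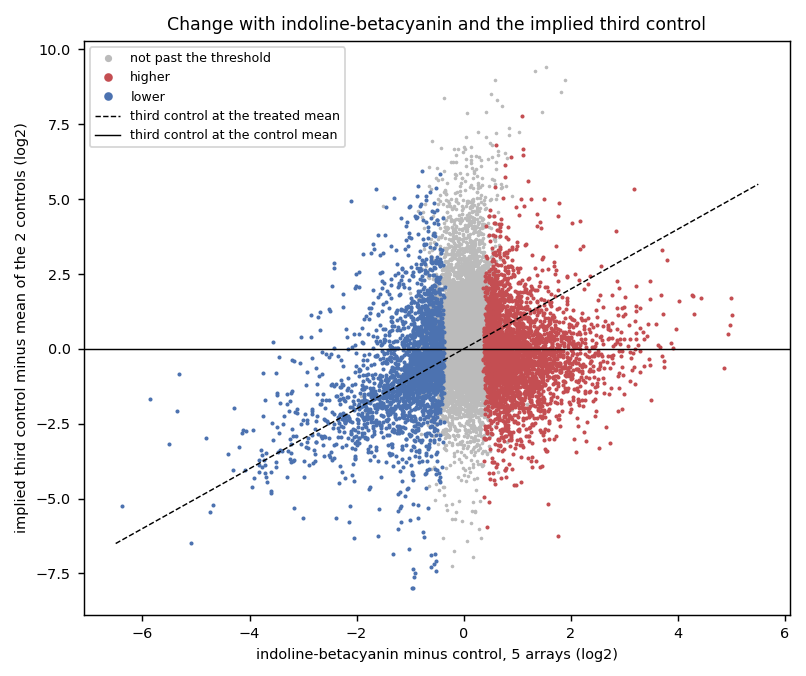
Each point is 1 of 15770 protein-coding genes, with its log2 change between the 5 arrays on the horizontal axis and the distance of the implied control from the mean of the 2 controls, in log2, on the vertical axis. Both sets spread widely, but higher genes (red) gather about the horizontal line, where the implied control equals the controls, and many lower genes (blue) lie about the dashed diagonal, where it equals the treated mean.

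The thaumatin-like gene thn-5 had log2 levels of 2.06 and 2.39 on the controls and 7.25, 7.20 and 7.27 with indoline-betacyanin. The tetraspanin gene tsp-4 went from 1.56 and 1.57 to 6.34, 6.61 and 6.72. For the insulin-like peptide gene ins-11 the controls read 4.45 and 4.59 and the treated arrays 9.57, 9.40 and 9.38. The 3 genes rose by 32.4-fold, 31.8-fold and 30.4-fold (log2 change 5.02, 4.99 and 4.93, SE 0.14, 0.15 and 0.13, each adjusted p = 4.66e-06). Their implied controls were 3.36, 3.26 and 5.03 by the table of indoline-betacyanin. By that of phenylalanine-betaxanthin they were 3.71, 1.37 and 5.12, so the 2 derivations disagreed for tsp-4. By both, the implied controls were much nearer the controls than the treated arrays. In the authors' deposited table their ratios were 24.9, 21.5 and 27.

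The nuclear receptor gene nhr-6, of the NR4A kind, rose from 3.67 and 3.84 to 7.76, 7.68 and 7.87. The calcineurin-binding protein gene cnp-3 rose from 4.31 and 4.28 to 8.71, 8.48 and 8.55, and the cytochrome P450 gene cyp-36A1 from 2.19 and 2.32 to 6.22, 6.10 and 6.18. For cyp-36A1 the implied control was 2.28, within the range of the controls, and its log2 change was 3.91 (SE 0.12). The other genes among the 15 with the largest rise carry only sequence names here: K10G6.5, Y73B6BL.37, F43C1.7, Y58A7A.4, Y38H6C.24, C50F4.9, Y75B8A.37, Y17D7B.2 and C54E10.11. They rose by 3.74 to 4.98 on the log2 scale. For Y58A7A.4 the controls read 1.09 and 1.04, below the limit on low levels, and the treated arrays 5.89, 4.70 and 5.49. That gene was therefore tested only through its treated levels. Of all 15, Y17D7B.2 alone had an implied control nearer the treated arrays, at 5.07.

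Among the 15 deepest falls were 4 cuticle collagen genes, col-93, col-157, col-65 and col-161, and the C-type lectin gene clec-10. The gene T13A10.1 stood at 8.30 and 8.19 on the controls and at 1.66, 2.5 and 1.45 with indoline-betacyanin, a fall of 83.2-fold. Levels of F36H12.5 were 7.94 and 7.88 against 1.3, 2.58 and 2.27, a fall of 58-fold. The collagen gene col-93 lay at 7.38 and 6.66 on the controls and at 1.44, 1.85 and 1.82 on the treated arrays. Their log2 changes were -6.38 (SE 0.30, adjusted p = 1.69e-05), -5.86 (SE 0.34, adjusted p = 3.83e-05) and -5.32 (SE 0.24, adjusted p = 1.52e-05). The implied control was 2.99 for T13A10.1, near the treated arrays, but 6.24 for F36H12.5 and 6.17 for col-93, nearer the controls. Across the 15 falls it was nearer the controls for F36H12.5, T16G1.13, col-93 and col-161, unsettled for K02E11.10 and col-157, and nearer the treated arrays for T13A10.1, Y17D7C.1, F07C3.16, F11A5.13, ZK180.5, col-65, F41F3.3, clec-10 and F47B3.4. Treated array 1 was lower than the others for F41F3.3, at 2.80 against 4.80 and 5.08. For F11A5.13 the treated mean, 1.49, was below the limit on low levels, so that gene was tested only through its controls.

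**Figure D3:**
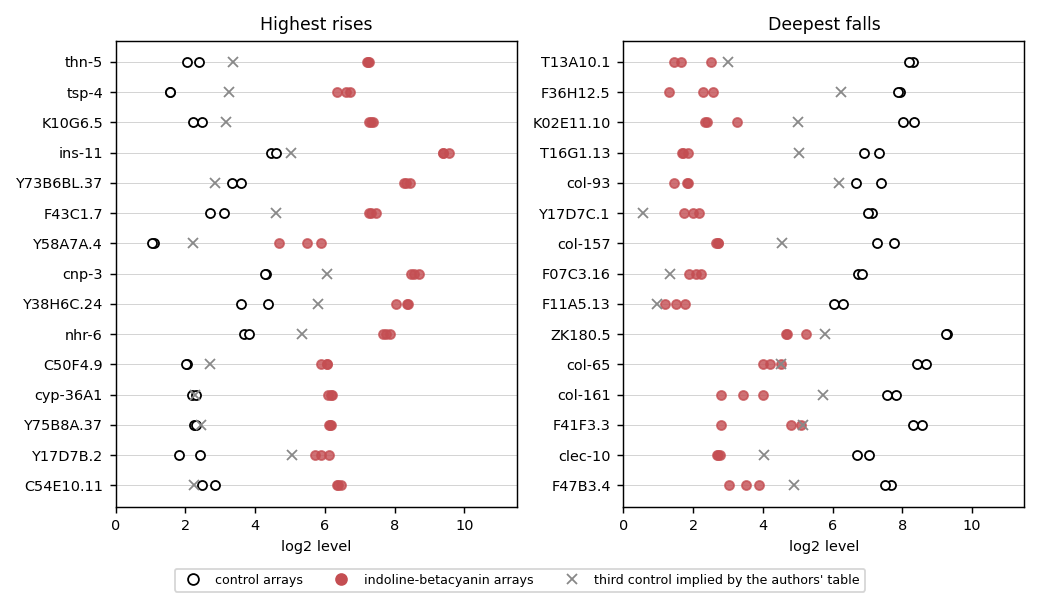
Log2 levels of the 15 protein-coding genes with the largest rise (left) and the 15 with the deepest fall (right); open circles are the 2 controls, filled circles the 3 indoline-betacyanin arrays and crosses the implied control. No filled circle overlaps an open one, since only genes without overlap were picked. Most crosses on the left lie near the open circles, and 9 of the 15 on the right near the filled ones.

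Genes for neuropeptides were raised as a group. Of 74 tested, 45 rose and 7 fell (60.8% and 9.46%), with a median log2 change of 0.75 against 0.04 over all protein-coding genes. The mean level of the list was 5.33 and 5.29 on the controls and 5.88, 5.97 and 5.96 with indoline-betacyanin, and the groups did not overlap. The gene nlp-46 rose from 2.14 and 2.17 to 5.18, 5.48 and 5.70 (log2 change 3.29, SE 0.17, adjusted p = 2.51e-05). The gene flp-21 encodes a ligand of the receptor NPR-1, which governs social feeding. It rose from 3.88 and 4.24 to 6.39, 6.39 and 6.30, or by 2.30 (SE 0.15, adjusted p = 4.98e-05). Levels of flp-28 were 6.32 and 6.35 against 8.35, 8.56 and 8.37, and those of nlp-18 were 7.60 and 7.21 against 9.35, 9.45 and 9.57. Rises of 1.74 and 2.0 were found for nlp-21 and nlp-50. In whole animals, more cells of a type and more RNA per cell cannot be told apart, which holds for every tissue below.

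The implied control lay nearer the controls for all 45 raised neuropeptide genes. Its mean over the list, 3.83, was further below the controls than the treated arrays were above them. Indicaxanthin arrays 1 and 2, which like the 5 arrays were low in yolk, had means of 5.35 and 5.88, so that 1 of them was at the level of the treated arrays. With all 11 arrays in 1 model 10 neuropeptide genes rose and 4 fell. With indicaxanthin array 3 left out of that model the counts were 44 and 7. Without either control array 4 neuropeptide genes fell.

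Receptors for neuropeptides moved the same way. Of 101 tested, 52 rose and 1 fell (51.5% and 0.99%), with a median of 0.51. The mean level was low, at 2.39 and 2.45 on the controls and 3.01, 3.13 and 3.02 with indoline-betacyanin, and 2.47 and 2.49 on indicaxanthin arrays 1 and 2. The FMRFamide peptide receptor gene frpr-3 rose from 2.96 and 2.99 to 5.68, 6.05 and 5.43 (log2 change 2.75, SE 0.19, adjusted p = 6.96e-05). The opioid-like receptor gene npr-17 went from 3.54 and 3.72 to 5.51, 5.43 and 5.2, and npr-12 from 4.39 and 4.40 to 5.94, 6.22 and 6.10. The genes npr-2, npr-37 and gnrr-2, the last related to receptors of gonadotropin-releasing hormone, rose by 1.6, 1.6 and 1.90. For 48 of the 52 the implied control was nearer the controls. All 11 arrays in 1 model gave 41 higher and none lower, and leaving out control array 1 gave 33 higher.

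The machinery that releases transmitter and peptide had no lower member. Of 38 tested genes, 24 rose (63.2%), with a median of 0.62. The kinesin gene unc-104, whose product carries synaptic vesicle precursors along axons, rose from 5.42 and 5.35 to 7.20, 7.15 and 6.94 (log2 change 1.71, SE 0.13, adjusted p = 0.000116). The gene unc-10 encodes RIM, a scaffold of the active zone, and went from 5.29 and 5.52 to 7.18, 6.78 and 6.66. The calcium channel gene unc-2 rose by 1.16, the endophilin gene unc-57 by 1.13 and rpm-1, a ubiquitin ligase of presynaptic terminals, by 1.13. The proprotein convertase gene egl-3 and the carboxypeptidase gene egl-21 cut peptide precursors into neuropeptides. Levels of egl-3 were 9.02 and 9.17 against 10.37, 10.10 and 10.14, and egl-21 rose by 0.82. In 22 of the 24 the implied control was nearer the controls. The list mean was 5.57 and 5.74 on the controls and 6.37, 6.24 and 6.25 with indoline-betacyanin. At 4.69, the implied control lay further below the controls than the treated arrays lay above them. Only 7 passed with all 11 arrays in 1 model, among them unc-104, with adjusted p = 0.0289, and not egl-3, with adjusted p = 0.173. Without control array 1 the count was 15.

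A list of 7 pan-neuronal markers gave 4 higher and none lower. Their mean level was 6.62 and 6.70 on the controls and 7.40, 7.33 and 7.29 with indoline-betacyanin. Those that rose were unc-104, egl-3 and egl-21, described above with the release machinery, and unc-119, which rose by 0.43. The list thus counts in part the same genes again. With all 11 arrays in 1 model 1 marker was higher. The implied control had a mean of 5.27, further below the controls than the treated arrays were above them. The synaptic vesicle genes rab-3 and snb-1 had log2 differences of 0.16 and 0.32 and missed the threshold (adjusted p = 0.33 and 0.082), as did ric-19.

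Genes of GABA signalling led the list of transmitter synthesis and transport, in which 6 of 17 rose and 3 fell, with a median of -0.04. Of the lower ones 1 passed without control array 1 or treated array 3, and 1 when each array was centred. The GABA reuptake transporter gene snf-11 rose from 2.26 and 2.14 to 3.76, 3.92 and 3.63 (log2 change 1.58, SE 0.14, adjusted p = 0.000186). The gene unc-25 encodes the enzyme that makes GABA, and rose from 4.42 and 4.26 to 5.33, 5.32 and 5.32. The gene unc-46, needed to place the vesicular GABA transporter, rose by 1.29. The choline transporter gene cho-1 and the serotonin transporter gene mod-5 rose by 0.82 and 0.60. The aromatic amino acid decarboxylase gene bas-1, used to make dopamine and serotonin, fell by 0.86, and the tyrosine decarboxylase gene tdc-1 fell by 0.51. Without either control array, or without treated array 2, 3 genes of the list were higher.

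Touch receptor neurons sense gentle touch along the body through a degenerin channel. Of 17 tested genes of these cells, 11 rose and 1 fell, with a median of 0.61. The channel gene mec-4 went from 2.99 and 2.78 to 5.07, 4.74 and 4.73 (log2 change 1.96, SE 0.16, adjusted p = 0.000127). The extracellular protein gene mec-1 went from 3.37 and 3.85 to 5.49, 5.65 and 5.45. The transcription factor gene mec-3, which sets the fate of these neurons, rose by 1.21 and the stomatin-like gene mec-2 by 0.91. Of the tubulin genes of these cells mec-7 rose by 0.44 and mec-12 had a difference of 0.13 (adjusted p = 0.434). The collagen gene mec-5, which is made by the surrounding epidermis, fell by 0.96. For all 11 that rose the implied control was nearer the controls. Its list mean was 2.98, against 4.09 and 4.24 on the controls and 4.89, 4.91 and 4.85 on the treated arrays. It thus lay further below the controls than the treated arrays lay above them. With all 11 arrays in 1 model 5 were higher, and without control array 1 7 were.

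Ion channels rose in part. Among 86 ligand-gated channel genes 30 rose and 6 fell, among 63 potassium channel genes 24 rose and 3 fell, and among 32 degenerin and TRP channel genes 12 rose and 2 fell. The medians were 0.31, 0.32 and 0.15. The gene lgc-35, a GABA-gated cation channel, went from 3.10 and 3.26 to 5.94, 5.76 and 5.64 (log2 change 2.60, SE 0.14, adjusted p = 2.99e-05). The two-pore potassium channel gene twk-10 went from 3.59 and 3.55 to 5.98, 6.34 and 6.18, with the same log2 change of 2.60 (SE 0.14, adjusted p = 3.11e-05). The serotonin-gated chloride channel gene mod-1 rose by 1.61, and the TRPC channel genes trp-1 and trp-2 by 0.99 and 1.32. The ligand-gated channel genes lgc-21 and lgc-22 fell by 2.79 and 1.79, and for both the implied control, 2.39 and 6.03, lay nearer the treated arrays. Without control array 1 the higher counts were 15, 14 and 7, and without control array 2 7 degenerin and TRP channel genes were higher. The 6 lower ligand-gated channel genes became 2 or 3 without any 1 array.

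**Figure D4:**
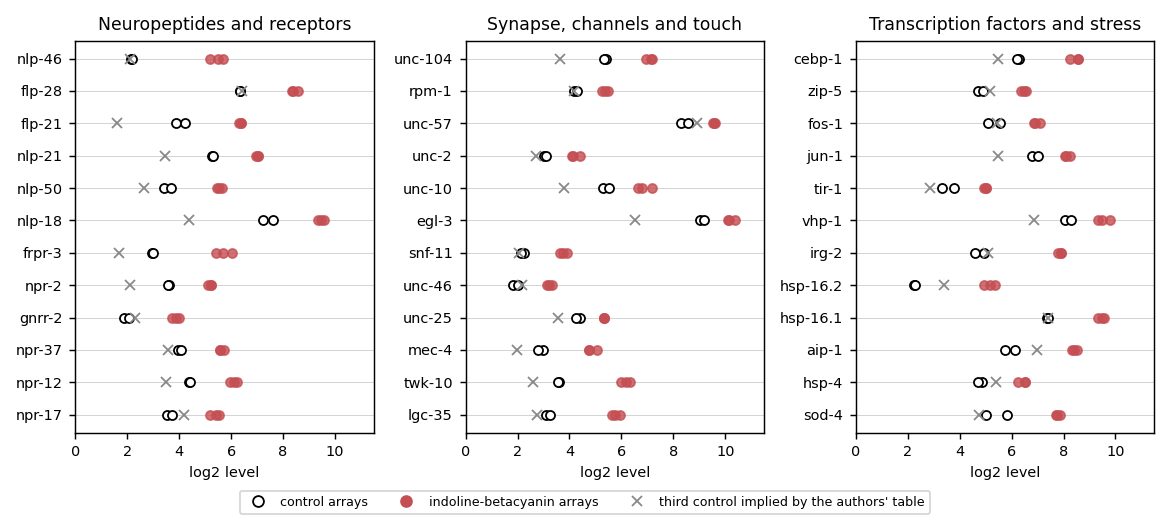
Log2 levels of 36 genes described in the text, for neuropeptides and their receptors, for synapse, channels and touch, and for transcription factors and stress; open circles are the 2 controls, filled circles the 3 indoline-betacyanin arrays and crosses the implied control. In each gene all filled circles lie above the open ones, as in every gene called higher. Each cross lies nearer the open circles than the filled ones.

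Chemoreceptors, the large families of G protein-coupled receptors with which the animal smells and tastes, gave calls whose balance depended on the setting. Of 431 tested, 55 rose and 107 fell (24.8% lower), with a median of -0.07. Among those above the median level of all clusters 36 rose and 30 fell, with a median of 0.17, and centring each array gave 81 and 83. The gene srg-36, a receptor of ascaroside pheromone, fell from 5.15 and 5.49 to 1.19, 1.4 and 1.51 (log2 change -3.96, SE 0.16, adjusted p = 1.1e-05). Its treated levels lay at or below the limit on low levels, so it was tested only through its controls. The genes srg-38, str-232 and str-7 fell by 2.23, 2.18 and 2.46. The genes sru-39 and srw-145 rose by 3.19 and 2.79. The implied control was nearer the treated arrays for 90 of the 107 that fell and nearer the controls for 48 of the 55 that rose. The mean level of the list was 2.05 and 1.98 on the controls and 1.90, 1.88 and 1.89 with indoline-betacyanin, so most of these genes were measured near the floor. Indicaxanthin arrays 1 and 2 had means of 1.75. Without control array 1 there were 34 higher and 80 lower.

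Transcription factors of the bZIP family rose more often than genes at large. Of 25 tested, 14 rose and 3 fell (56.0% and 12%), with a median of 0.49. The C/EBP gene cebp-1, which acts in axon regrowth and in the response to toxins, rose from 6.28 and 6.23 to 8.56, 8.26 and 8.54 (log2 change 2.2, SE 0.14, adjusted p = 5.35e-05). The gene fos-1 went from 5.08 and 5.56 to 7.11, 6.87 and 6.91, and its partner jun-1 from 6.80 and 7.01 to 8.11, 8.25 and 8.04. The gene zip-5 rose by 1.68, atfs-1, the regulator of the mitochondrial unfolded protein response, by 0.89, and zip-4 by 0.98. All 11 arrays in 1 model gave 8 higher and 3 lower. For 12 of the 14 the implied control was nearer the controls.

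Of 27 helix-loop-helix genes 11 rose and 3 fell. Without control array 1 3 rose, without control array 2 5, and without any 1 treated array 6. The aryl hydrocarbon receptor gene ahr-1, which belongs to this family, rose from 3.93 and 4.46 to 6.0, 5.86 and 6.08 (log2 change 1.78, SE 0.18, adjusted p = 0.000347). The gene hlh-33 rose by 1.48 and hlh-15 fell by 1.14.

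The p38 MAP kinase pathway defends the intestine against pathogens through the adaptor TIR-1, the kinases NSY-1, SEK-1 and PMK-1, and the factor ATF-7. Of 22 genes listed with the pathway, its targets or infection response genes, 10 rose and 7 fell. The upstream genes that passed all rose: tir-1 went from 3.32 and 3.79 to 5.03, 4.92 and 5.01 (log2 change 1.43, SE 0.17, adjusted p = 0.000616), sek-1 rose by 0.80 and atf-7 by 0.83. The phosphatase gene vhp-1, which switches the kinases off, rose from 8.07 and 8.29 to 9.79, 9.33 and 9.50. The kinase genes pmk-1 and nsy-1 had differences of 0.46 and 0.03 and missed the threshold (adjusted p = 0.0504 and 0.879). Other listed genes went both ways, and whether each depends on PMK-1 was not tested. The infection response gene irg-2 rose from 4.6 and 4.93 to 7.90, 7.91 and 7.79 and irg-1 by 0.78, while C17H12.8 fell from 8.44 and 8.47 to 5.98, 6.10 and 6.28, clec-85 by 1.97 and irg-5 by 1.02. The implied control was nearer the controls for all 10 that rose and nearer the treated arrays for 6 of the 7 that fell, clec-85 being the exception. Without treated array 3 there were 4 lower genes.

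In the cytosolic heat shock response, 13 of 25 genes rose and 4 fell, with a median of 0.45. The small heat shock gene hsp-16.2 had levels of 2.24 and 2.29 against 5.17, 4.93 and 5.36 (log2 change 2.89, SE 0.16, adjusted p = 2.9e-05). The gene aip-1, an arsenite-inducible proteasome adaptor, went from 6.11 and 5.76 to 8.35, 8.40 and 8.52. The chaperone gene hsp-70 rose by 1.76 and the regulator hsf-1 by 0.85, but sip-1, a small heat shock protein of the germ line, fell by 1.74. For 6 of the 13 the implied control was nearer the controls and for 6 nearer the treated arrays. Without control array 1, 2 were lower. Of 8 superoxide dismutase and catalase genes 3 rose and 2 fell: sod-4, an extracellular enzyme, went from 5.02 and 5.82 to 7.69, 7.85 and 7.77, while sod-1 fell by 1.08. In endoplasmic reticulum stress, 7 of 23 rose and none fell, led by dnj-27 at 1.75, hsp-4 at 1.64 and the kinase pek-1 at 1.38. In the autophagy list 4 of 27 rose and 3 fell (14.8% and 11.1%), below the 21% and 16.5% of all genes. Among those that rose were the receptor gene sqst-1, by 1.09, and bec-1, by 0.88. With all 11 arrays in 1 model 2 rose and none fell. For hypoxia and sulfide, 4 of 16 rose, with sqrd-1 at 0.94 and fmo-2 at 1.04, and 4 fell, which became 2 without control array 1 and 1 without control array 2 or treated array 3.

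Tetraspanins are small membrane proteins that organise signalling and fusion at the cell surface. Of 18 tested genes 9 rose and 2 fell, with a median of 0.47, and the list mean went from 4.63 and 4.73 to 5.38, 5.60 and 5.49. Besides tsp-4, the gene tsp-1 rose from 8.16 and 8.56 to 10.36, 10.20 and 10.21 (log2 change 1.90, SE 0.16, adjusted p = 0.000146). The genes tsp-2, tsp-13 and tsp-17 rose by 1.72, 1.65 and 1.47. For all 9 the implied control was nearer the controls, though its list mean, 3.97, was below both of them. All 11 arrays in 1 model gave 4 higher.

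Basement membrane and integrin genes rose in 9 of 23 cases and fell in none, with a median of 0.35. The fibulin gene fbl-1 went from 3.88 and 4.24 to 5.95, 6.01 and 6.14 (log2 change 1.98, SE 0.15, adjusted p = 0.00011). The laminin genes epi-1 and lam-2 rose by 1.12 and 0.76, the papilin gene mig-6 by 1.4 and the peroxidasin gene pxn-2 by 1.23. The integrin genes ina-1, pat-2 and pat-3 rose by 1.14, 0.96 and 1.02. The collagen IV genes emb-9 and let-2 and the perlecan gene unc-52 had differences of -0.15, 0.32 and -0.06 and missed the threshold.

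Lists of signals between cells had more higher calls than genes at large, while their lower calls were near the 16.5% of all genes. Of 28 Wnt pathway genes 10 rose and 4 fell (35.7% and 14.3%). With all 11 arrays in 1 model 1 rose and none fell, and 5 rose without control array 1. Without treated array 1 or 3, 2 fell. The Wnt genes cwn-1, egl-20 and lin-44 rose by 1.57, 1.14 and 0.71, and the beta-catenin gene bar-1 by 0.84, while the frizzled receptor gene mig-1 fell by 1.27. In TGF-beta and steroid hormone signalling, 8 of 23 rose and 4 fell (34.8% and 17.4%). The gene ncr-1, related to the human cholesterol transporter NPC1, rose from 3.92 and 4.30 to 6.62, 6.53 and 6.63. The dauer-inhibiting ligand gene daf-7 fell by 1.13 and daf-9, the P450 that makes the steroid hormone, fell by 0.97. Of this list 3 rose without control array 1, 5 without treated array 2 and 4 without treated array 3, and 2 fell without control array 2. Innexins, which form gap junctions, had 7 of 21 higher and 4 lower. Of them inx-20 and inx-16 rose by 1.18 and 1.26, and inx-8 and inx-14 fell, both with implied controls above 6 at 6.90 and 6.38. With control array 1 left out the counts were 2 and 0, without treated array 2 they were 4 and 2, and without treated array 3 they were 2 and 2.

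The insulin-like peptides gave 7 higher and 6 lower of 32 tested, near the shares of all genes, although ins-11 was among the largest rises measured. Nuclear hormone receptors gave 57 higher and 23 lower of 223 (25.6% and 10.3%). The 23 became 11 without control array 2, and with all 11 arrays in 1 model the counts were 34 and 3. Without control array 1, 38 were higher.

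Cuticle collagens fell as a group. Of 152 tested 92 fell and 5 rose (60.5% and 3.29%), with a median of -0.95. The list mean was 5.55 and 5.45 on the controls and 4.13, 4.37 and 4.34 with indoline-betacyanin, against 5.66 and 5.69 on indicaxanthin arrays 1 and 2. The gene rol-6, whose mutants roll, went from 7.04 and 6.74 to 3.88, 3.84 and 4.07 (log2 change -2.96, SE 0.15, adjusted p = 2.22e-05). The gene col-157 went from 7.76 and 7.26 to 2.71, 2.66 and 2.71. For 69 of the 92 the implied control was nearer the treated arrays and for 19 nearer the controls, with a list mean of 4.21. All 11 arrays in 1 model gave 41 lower and none higher. The 5 higher ones became 1 without control array 1, 2 without control array 2, 8 without treated array 1 and 3 without treated array 3. Of 14 enzymes that modify collagens 5 rose and 1 fell, with the dual oxidase gene bli-3 up by 1.07 and the prolyl hydroxylase gene dpy-18 by 0.63. When control array 1 was left out, 3 of these enzymes rose.

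Genes related to hedgehog and patched fell in 39 of 78 cases and rose in 8, with a median of -0.60. These secreted proteins and membrane proteins are made largely by epidermis and take part in moulting. The gene grl-16 went from 9.03 and 8.80 to 4.62, 4.93 and 4.99 (log2 change -4.07, SE 0.16, adjusted p = 9.62e-06), and grd-6 from 5.37 and 5.29 to 2.03, 2.43 and 2.35. The genes grd-14, ptr-16 and grl-25 fell by 3.31, 2.33 and 2.04. The patched-related gene ptr-8 ran the other way, from 5.85 and 6.2 to 8.24, 8.16 and 8.22. For 32 of the 39 the implied control was nearer the treated arrays and for 2 nearer the controls, and its list mean, 3.40, was below every one of the 5 arrays. The list mean on indicaxanthin arrays 1 and 2 was 5.33 and 5.25, beside 5.21 and 5.23 on the controls. The model of all 11 arrays gave 13 lower.

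The moulting list was split, with 5 of 15 higher and 5 lower. The fibrillin-like gene fbn-1 rose from 5.12 and 5.24 to 7.37, 7.31 and 7.32, let-653 by 1.42, nekl-2 by 1.12, bli-3 by 1.07 and mlt-11 by 1.02. The genes wrt-4, mlt-10, nas-37, mlt-9 and mlt-8 fell, by 3.43, 2.59, 0.96, 0.87 and 0.71. Neither set overlapped between the groups, which held for every gene called in either direction and for 62% of all genes tested. By both tables the implied control was nearer the controls for all 5 that rose and nearer the treated arrays for 4 of the 5 that fell. Among the timing genes of larval development, in which 4 of 20 rose and 4 fell, nhr-85 rose by 1.44 while lin-42 and lin-14 fell by 0.91 and 0.95. Astacin metalloproteases, some of which cut cuticle, gave 5 higher and 8 lower of 31, with nas-38 down by 2.64 and nas-31 up by 1.82. With control array 1 left out or 2 there were 2 higher astacin genes, and without treated array 3 there were 3.

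**Figure D5:**
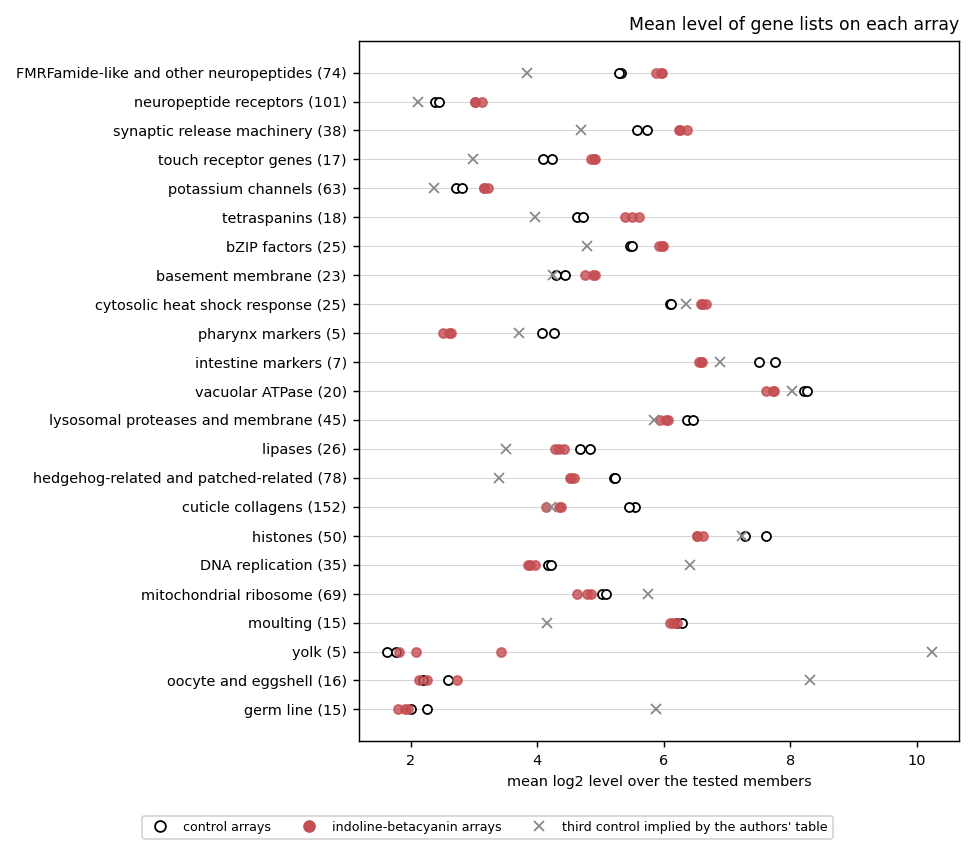
Mean log2 level over the tested members of 23 gene lists, with the number of members in brackets; open circles are the 2 controls, filled circles the 3 indoline-betacyanin arrays and crosses the implied control. Neuronal lists, tetraspanins and bZIP genes lie higher on the treated arrays and pharynx, intestine, collagen and histone lists lower, while the yolk, oocyte and germ-line means of the implied control are far above all 5 arrays.

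Markers of the pharynx fell in all 5 tested genes, from a mean of 4.08 and 4.26 to 2.60, 2.51 and 2.64, with a median change of -1.79. The pharyngeal myosin gene myo-1 went from 5.16 and 5.47 to 3.26, 3.27 and 3.58 (log2 change -1.94, SE 0.16, adjusted p = 0.000158). The troponin I gene tni-4 went from 4.59 and 4.94 to 2.88, 2.36 and 1.98, and the troponin C gene tnc-2 from 4.12 and 4.58 to 2.35, 2.86 and 2.45. The second pharyngeal myosin gene myo-2 fell by 1.0 and marg-1 by 0.85. For 4 of the 5 the implied control was nearer the controls, and the mean on indicaxanthin arrays 1 and 2 was 4.46 and 4.04, at the level of the controls. Of the wider list of 72 pharyngeal genes, most of them of the abu, pqn and phat families, 28 fell and 17 rose. The gene phat-7 fell from 5.94 and 4.90 to 1.6, 2.44 and 1.89, abu-12 by 1.90, pqn-25 by 1.76 and pqn-16 by 2.35, while pqn-62 rose by 1.47. When control array 1 was left out, 3 of the 5 markers fell, and without treated array 3, 11 of the wider list rose.

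Of 6 markers of body wall muscle 1 rose and 2 fell, the mean being 8.61 and 8.66 on the controls and 8.82, 8.53 and 8.81 with indoline-betacyanin. Without either control array, or without treated array 1 or 2, no marker fell, nor did any with all 11 arrays in 1 model or with each array centred. Leaving out treated array 3 kept 1 lower. Of 34 sarcomere genes 9 rose and 8 fell. The 8 became 1 without control array 1, 2 without control array 2, 3 without treated array 1 and 2 without treated array 2 or 3. No sarcomere gene fell with all 11 arrays in 1 model, and 1 fell, with 13 higher, when each array was centred on its median.

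Intestine markers fell in 4 of 7 cases. The peptide transporter gene pept-1 went from 4.83 and 5.01 to 2.25, 2.41 and 2.03 (log2 change -2.69, SE 0.15, adjusted p = 3.5e-05). The acid phosphatase gene pho-1 went from 6.83 and 7.19 to 4.98, 5.29 and 5.12, and the intermediate filament gene ifb-2 from 9.13 and 9.43 to 7.85, 7.68 and 7.93. The gene of the intestinal proton pump subunit, vha-6, went from 8.46 and 8.55 to 7.0, 6.75 and 6.86. The gene elt-2, the GATA factor that defines the tissue, rose by 0.66, and the intestinal actin gene act-5 and the esterase gene ges-1 had differences of -0.06 and -0.28 (adjusted p = 0.766 and 0.12). The marker mean was 7.51 and 7.75 on the controls and 6.60, 6.55 and 6.59 on the treated arrays, and 4 also fell with all 11 arrays in 1 model. The rise of elt-2 missed the threshold in that model and without control array 1, treated array 1 or treated array 3, where its log2 difference was 0.41 to 0.66. The part of these markers in the metabolic lists that follow was not tested.

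The vacuolar ATPase is the proton pump that acidifies lysosomes and, at the apical membrane, the gut. Of 20 subunit genes 12 fell and 1 rose (60% and 5%), with a median of -0.49 and list means of 8.22 and 8.26 against 7.73, 7.62 and 7.74. The largest fall after vha-6 was in vha-3, from 7.63 and 7.07 to 5.78, 5.97 and 5.78. The genes vha-8, vha-19, vha-11 and vha-10 fell by 1.05, 0.83, 0.81 and 0.78. The model of all 11 arrays gave 8 lower and none higher. The implied control lay nearer the treated arrays for 8 of the 12.

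Lysosomal proteases and membrane proteins fell in 18 of 45 cases and rose in 5. The cathepsin B-like gene cpr-5 went from 8.48 and 8.32 to 5.72, 6.06 and 6.06 (log2 change -2.45, SE 0.16, adjusted p = 4.98e-05). The aspartic protease genes asp-7 and asp-13 fell by 2.78 and 1.34 and the glucocerebrosidase gene gba-1 by 1.47. The acid ceramidase gene asah-2 rose by 2.12 and cpr-3 by 1.21. For 12 of the 18 the implied control was nearer the treated arrays, and all 11 arrays in 1 model gave 11 lower. With control array 1 left out, 2 rose.

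Fat metabolism was lower in its lipases. Of 26 lipase genes 13 fell and 2 rose, with a median of -0.38. The gene lips-6 went from 5.96 and 5.86 to 2.31, 2.65 and 2.57 (log2 change -3.40, SE 0.14, adjusted p = 1.26e-05), and lips-3, lips-15, lips-7 and lipl-3 fell by 1.84, 1.48, 1.22 and 0.96. The lysosomal acid lipase gene lipl-4, known for its link to long life, ran the other way, from 2.75 and 3.12 to 6.03, 6.33 and 6.03 (log2 change 3.20, SE 0.17, adjusted p = 2.71e-05), with an implied control of 1.75. For 12 of the 13 that fell the implied control was nearer the treated arrays, and all 11 arrays in 1 model gave 2 lower. Without control array 2 there were 8. Of 18 lipid-binding protein genes 6 fell and 2 rose: lbp-7 went from 7.08 and 7.54 to 3.55, 3.98 and 3.87, and dsc-4, which loads lipid onto yolk lipoprotein, fell by 1.57. Without treated array 3 there were 3 lower. Beta-oxidation gave 3 higher and 9 lower of 48, and acyl-CoA synthetases 2 and 5 of 21.

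Genes of water and osmolyte balance were lower in 11 of 29 cases and higher in 2, with a median of -0.41. The inositol transporter gene hmit-1.1 had levels of 8.13 and 8.36 on the controls and 4.38, 4.73 and 4.40 with indoline-betacyanin (log2 change -3.74, SE 0.16, adjusted p = 1.26e-05). Its relative hmit-1.3 fell by 1.08. The aquaporin genes aqp-4 and aqp-8 fell by 2.52 and 1.33, from 5.33 and 5.74 to 2.37, 3.21 and 3.47 in the case of aqp-4. The genes osm-7 and osm-11 encode secreted proteins of the epidermis whose loss switches on glycerol synthesis, and fell by 1.74 and 1.68. For 6 of the 11 the implied control was nearer the controls, and 9 of the list were lower with all 11 arrays in 1 model.

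Methionine and one-carbon metabolism, which in this animal depends on vitamin B12, had 9 of 30 genes lower and 1 higher. The cystathionine lyase gene cth-1 went from 7.66 and 7.76 to 6.03, 6.29 and 6.07. The reductase gene mthf-1, the methionine synthase gene metr-1 and its reductase gene mtrr-1 fell by 1.1, 0.71 and 0.85, and the S-adenosylmethionine synthetase gene sams-1 by 0.57. The gene acdh-1, a sensor of dietary B12 whose level rises when the vitamin is short, fell by 1.28. The model of all 11 arrays gave 5 lower.

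Enzymes and pumps that handle foreign compounds were split. Of 55 UDP-glucuronosyltransferase genes 8 rose and 19 fell (14.5% and 34.5%). The gene ugt-38 went from 4.88 and 4.42 to 1.01, 1.0 and 1.14 (log2 change -3.60, SE 0.16, adjusted p = 1.55e-05). Its treated levels were below the limit on low levels, so ugt-38 was tested only through its controls. Levels of ugt-46 went from 5.65 and 5.89 to 2.97, 3.25 and 3.15, while ugt-28 rose by 1.78. When control array 1 was left out there were 3 higher and 20 lower, and without control array 2 there were 5 higher. Of 43 glutathione S-transferase genes 12 rose and 15 fell. The gene gst-19 went from 1.91 and 2.06 to 5.33, 4.96 and 5.57 and gst-24 rose by 1.72, whereas gst-28 fell by 1.67. With control array 1 left out the counts were 5 and 8, without control array 2 they were 6 and 8, without treated array 2 there were 7 higher, and with all 11 arrays in 1 model 5 and 3. Centring each array turned the balance to 15 higher and 9 lower.

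Of 45 ABC transporter genes 7 rose and 13 fell, among them haf-2, which went from 5.11 and 5.53 to 8.07, 8.10 and 8.09, pgp-6, which rose by 1.97, and haf-4, which fell by 1.43. Of 30 carboxylesterase genes 6 rose and 9 fell, with cest-26 up by 2.14 and cest-1.1 down, from 4.31 and 4.91 to 2.53, 2.39 and 1.77. Without control array 2, 5 carboxylesterase genes were lower. Of 58 cytochrome P450 genes 9 rose and 12 fell, which centring turned to 15 and 8 and the model of all 11 arrays to 8 and 3. For ABC transporters centring gave 12 higher and 10 lower. The implied control was nearer the treated arrays for 11 of the 19 glucuronosyltransferase genes that fell, 11 of the 15 glutathione S-transferase genes and 11 of the 12 P450 genes.

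Lists of secreted proteins, many of them linked to defence, gave calls in both directions. Of 185 C-type lectin genes 22 rose and 58 fell (11.9% and 31.4%), with clec-10 and clec-51 down by 4.14 and 1.88 and clec-6 and clec-221 up by 3.45 and 3.48. Levels of clec-6 were 2.85 and 3.19 against 6.37, 6.52 and 6.53. When control array 1 was left out there were 13 higher, and without control array 2 or treated array 3 there were 14. Of 39 lysozyme and saposin-like genes 8 rose and 14 fell. The lysozyme gene lys-3 went from 5.12 and 5.62 to 7.95, 8.05 and 7.87 and lys-7 rose by 1.41, while lys-4 fell from 8.09 and 8.24 to 5.82, 6.39 and 6.16 and spp-17 by 2.51. With control array 1 left out there were 5 higher. Transthyretin-like proteins gave 17 higher and 10 lower of 53, with ttr-26 at 5.12 and 5.12 against 7.30, 7.21 and 7.30 and ttr-27 down by 2.28. The 10 became 4 to 6 when any 1 array was left out. Of 12 protease inhibitor genes 4 rose and 1 fell, with the thioester protein gene tep-1 up from 7.35 and 7.51 to 9.40, 9.33 and 9.24, and 2 rose without either control array.

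Histone genes were lower. Of 50 tested 36 fell and 2 rose (72% and 4%), with a median of -0.94 and list means of 7.62 and 7.28 against 6.52, 6.53 and 6.62. The gene his-54 fell by 2.99 (SE 0.23, adjusted p = 0.000108), and his-15, his-60, his-48 and his-3 fell by 2.0, 1.65, 2.25 and 2.21. Copies of core histone genes share probes, so single members are uncertain and the list is better read as a whole. The linker histone-like gene hil-1 rose from 3.40 and 3.68 to 5.98, 6.34 and 6.16. For 15 of the 36 the implied control was nearer the controls and for 18 nearer the treated arrays, at a list mean of 7.24. The model of all 11 arrays gave 29 lower.

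Lists of DNA replication and of the cell cycle had small medians. Of 35 replication genes 10 fell and 1 rose, with a median of -0.26, and of 57 cell cycle and mitosis genes 16 fell and 3 rose, with a median of -0.20. The ribonucleotide reductase gene rnr-2 went from 6.93 and 6.95 to 5.97, 5.97 and 5.81, and the helicase gene mcm-2 from 5.43 and 5.57 to 4.40, 3.96 and 4.47. The spindle gene tpxl-1 fell by 1.36 and the mitotic kinase gene air-1 by 0.81. For all 26 that fell the implied control was nearer the controls, and far above them, at list means of 6.41 for replication against 4.17 and 4.22 and 5.90 for the cell cycle against 3.77 and 3.77. None of either list passed with all 11 arrays in 1 model. The 16 lower cell cycle genes became 6 without control array 1, 9 without control array 2 and 10 without treated array 1 or 3. Without control array 2, 6 replication genes fell. Germ-line markers were low on all 5 arrays, with means of 2.26 and 2.0 against 1.91, 1.95 and 1.80, and 4 of 15 fell, among them fbf-1 and fbf-2 by 0.85 and 0.92. When control array 1 was left out, 1 fell, and without treated array 1, 2 fell.

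Ribosomal protein genes moved little in size. Of 73 cytosolic genes 20 fell and none rose, with a median of -0.29, but 2 fell without control array 1, 9 without treated array 1, 6 without treated array 2, 11 without treated array 3 and 7 with each array centred on its median. The gene rpl-29 went from 6.42 and 6.38 to 5.2, 4.68 and 5.08. Of 69 mitochondrial ribosome genes 19 fell and none rose, with a median of -0.26, and 9, 8, 12 and 10 fell without control array 1, control array 2, treated array 1 and treated array 3. The gene mrpl-16 went from 5.31 and 5.5 to 4.17, 4.21 and 4.17 (log2 change -1.22, SE 0.12, adjusted p = 0.000344). The implied control was nearer the controls for 18 of the 19 mitochondrial genes and for none of the 20 cytosolic ones. The mitochondrial list mean was 5.03 and 5.08 on the controls and 4.63, 4.85 and 4.79 with indoline-betacyanin. At 5.75, the implied control lay further above the controls than the treated arrays lay below them. Ribosome biogenesis gave 6 higher and 9 lower of 35, with the fibrillarin gene fib-1 down by 0.92 and the snoRNP gene nola-3 up by 1.23, and 5 fell without either control array. Centring turned the balance to 9 higher and 6 lower.

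Other lists are given by their counts. The 33 tested proteasome genes had none higher and 1 lower, and the 23 glycolysis genes 1 and 1. The respiratory chain and ATP synthase had none higher and 7 lower of 48, and the TCA and glyoxylate cycles 2 and 7 of 29, or 24.1% lower. Centring each array turned the TCA counts to 3 and 2. The insulin receptor pathway had 2 higher and 1 lower of 22. F-box, SKP1 and cullin genes gave 36 and 33 of 204, homeobox genes 15 and 10 of 78, and solute carriers for nutrients 16 and 15 of 87. Splicing gave 11 and 2 of 48, ciliary transport 17 and 2 of 64 (26.6% higher), guanylyl cyclases 4 and 1 of 22 (18.2% higher), and the intracellular pathogen response 12 and 3 of 44 (27.3% higher). Metal handling gave 10 and 6 of 34 (29.4% higher), and antimicrobial peptides 10 and 9 of 44.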

How the data were processed

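RNA of whole animals was measured on Affymetrix arrays. Per the labels and the submitters' processing notes, the authors normalised the arrays by RMA, whose version is not given, and the deposited values are log2 intensities per transcript cluster. The authors' deposited tables also hold a ratio, a p-value and a score (an F statistic and its sums of squares) for each cluster, and the implied control was calculated from the ratio. Array precision is limited by the number of arrays. Of 29317 clusters, 27055 carried a gene name in the authors' table. Of these, 26811 matched the reference, 244 did not, and 2262 clusters without a name were left out.

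The 5 arrays were fitted with limma 3.58.1 in R 4.3.3 (lmFit, then eBayes), with no covariate, 3 residual and 4 prior degrees of freedom. Clusters whose mean over the 5 arrays was above the 25th percentile, a log2 level of 1.509, were tested. A gene below that level in 1 group could thus pass through the other. The p-values were adjusted by Benjamini-Hochberg over 20291 clusters. A gene with several clusters was represented by the one of highest mean over the 5 arrays, with their mean as an alternative. On simulated data for this comparison over 20291 clusters, 89 of 100 changes of 2 and 51 of 100 changes of 1 (log2) were recovered. Of 20091 unchanged clusters 5 were called. No other clusters were changed in the simulation, whereas 36.9% were called in the data. Its values were also drawn independently of each other. The rates of the simulation therefore need not hold for the data.

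The comparison and its 93 gene lists were chosen with earlier results of these data known. Named genes were the 15 largest changes in each direction, up to 6 called members with the smallest p of each of the 49 lists described in full (a share of at least 1.5 times that of all genes in 1 direction, with at least 4 members), and members of short written lists. The implied control was put nearer the controls where both tables placed it under 0.5 of the way from control to treated mean. At 0.5 or more by both it was put nearer the treated arrays. No limit was set on the far side, so it may lie well beyond the group it was put nearer. Only 2 trial numbers were shared by both groups, and they were not used as pairs. The deviations of same-numbered arrays correlated at -0.051 and -0.022. With 2 controls the control deviations mirror each other, so these values rest on 1 contrast. They cannot settle whether trials were shared. Alternatives covered the arrays fitted, a replicate block, the filter, quantile normalization, centring, eBayes options, array weights, cluster averaging, a fold limit and leaving out each array.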

Additional observations from a re-analysis of the deposited data

How the results depend on the processing

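With all 11 arrays there were 1693 higher and 2093 lower clusters, and 1474 higher and 1068 lower protein-coding genes. With indicaxanthin array 3 left out of that model the gene counts were 3197 and 2560. A log2 change of at least 1 left 1531 and 1843 clusters, and 1391 and 1016 genes. Leaving out 1 array in turn gave 2285 to 3297 higher and 2877 to 3256 lower clusters, and 2093 to 3006 higher and 1897 to 2159 lower genes. The trial numbers were not used as pairs. The replicate block by trial number over all 11 arrays gave 1463 and 1667 clusters, and 1303 and 785 genes. The other alternatives kept each count within 1.5 times, apart from the change in the split of calls under centring given above.

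Of 406 called genes among those that could be named, no direction reversed under any alternative run. The filter at the median level held 394 of them. Adding arrays without a block, either filter setting, the eBayes options and the fold limit leave each log2 change as it was. No sign could therefore reverse in those runs. The genes were also picked in part by a small p or a large change. All 11 arrays in 1 model ended 164 calls, the replicate block 186, leaving out control array 1 77 and control array 2 52. Leaving out a treated array ended 33 to 49, and centring ended 25. The causes were not tested. The 2 controls limit the precision, the labels' stage is not borne out by the stage markers, and the further control of the authors' table is not analysed here. Genes near the floor of the arrays have understated folds.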

Other observations

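Gene families that share a symbol root were screened after their values were seen, over 218 families with at least 8 tested members, and the following are values only. Of 80 tested genes named nssp, 52 rose and 4 fell, with a median log2 change of 0.79 and means of 3.80 and 3.76 on the controls and 4.52, 4.66 and 4.56 with indoline-betacyanin. The means on indicaxanthin arrays 1 and 2 were 3.79 and 4.47. Of 26 genes named clc 17 rose and none fell, with a median of 0.71, and of 9 FERM domain genes named frm 7 rose and none fell. Arrestin domain genes (arrd) gave 12 higher and 1 lower of 24, G protein alpha subunits (gpa) 9 and none of 16, and globins (glb) 11 and 1 of 33. In each of these families the implied control was nearer the controls for most of the genes that rose. Its means for nssp, clc, frm and glb were 2.87, 3.82, 4.67 and 2.26. In these it lay further below the controls than the treated arrays lay above them. For arrd and gpa it was also below both controls, at 3.06 and 2.35, but closer to them.

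The F-box genes, which gave 36 higher and 33 lower as 1 list, are given here by family. Of 113 genes named fbxa 31 rose and 2 fell, with a median of 0.14. Of 41 genes named fbxb 21 fell and none rose, with a median of -0.45 and means of 2.08 and 2.05 on the controls against 1.56, 1.52 and 1.54. The fbxb genes were measured near the floor, and indicaxanthin arrays 1 and 2, at 1.61 and 1.59, lay at the level of the treated arrays. The difference between the families was not tested. Of 12 genes named nspc 8 fell and none rose, with a median of -1.36 and means of 4.36 and 4.22 against 2.54, 3.18 and 3.30.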
